A study of Homo sapiens with 8 samples.

Results

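The nucleolar ribosome biogenesis genes are 54 genes, most with products that make ribosomal RNA, modify it, cut it or assemble it with ribosomal proteins. The list also holds PUS1, which modifies transfer RNA and other RNAs. They were followed through an androgen time course in MDA-MB-453, a human breast cancer line that lacks estrogen receptor and carries the androgen receptor. The 54 names came as a list that was chosen with earlier results of these data known. Each gene was read by its brightest probe set, among those annotated to exactly 1 symbol, over all arrays. Of the 54, 47 could be read, out of 19775 genes read on these arrays. NOP56, DKC1, BOP1 and PPAN had only probe sets with several symbols, and GNL3, DDX18 and EBNA1BP2 were not analysed here.

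Every culture, the controls included, spent 3 days before treatment in a medium free of phenol red whose serum (5%) had been stripped of steroids with charcoal and dextran. Vehicle or 10 nM DHT (dihydrotestosterone, a potent natural androgen) was then added, and DHT was left on for 4, 16 or 48 h. Total RNA of 2 samples per group, labelled biological replicates, was put on 8 expression arrays. The labels give the vehicle arrays no time, so an effect of DHT and one of time in the depleted medium cannot be told apart. MDA-MB-453 is 1 cell line, which limits how far the values stand for breast tumours.

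Values are log2 signals, in which a difference of 1 is a doubling. The median log2 signal per array lay between 7.59 and 7.63. The 9 luminal markers that could be read had log2 signals from 11.33 to 14.52. Of these 9, 3 were called at 16 h and 4 at 48 h, in either direction, with log2 changes at 48 h from -0.85 for GATA3 to 0.68 for KRT19 (FOXA1 -0.72, ERBB2 -0.65). ESR1, the estrogen receptor, had 8.23 to 8.62. The basal keratins KRT5 and KRT14 had 7.95 to 8.71 and 5.70 to 6.25, with log2 changes of 0.51 and 0.12 at 48 h, 1 of the 2 called. In control probe sets, the 3′ minus 5′ difference for ACTB, a sign of RNA quality, was 1.52 log2 units on DHT 16 h replicate 2. It was 0.945 on DHT 48 h replicate 2 and 0.203 to 0.535 on the other arrays. For GAPDH these values were 0.817, 0.319 and 0.185 to 0.349. The log2 signal averaged over the 2 basal keratins read was 7.36 and 7.40 at 48 h, against 6.92 and 7.21 with vehicle. The part of these markers in the 16 h and 48 h results was not tested.

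Ribosome production begins in the nucleolus, where RNA polymerase I copies the ribosomal DNA into a long precursor. Small nucleolar RNPs and stand-alone enzymes modify this precursor, a large processome cuts out the small subunit RNA, and a chain of pre-ribosomal particles matures the large subunit. The genes that encode this machinery are known targets of MYC, a growth-promoting transcription factor that binds the DNA word CACGTG, called the E-box. On these arrays MYC had a log2 signal of 10.54 and 10.55 with vehicle, 12.20 and 12.22 at 4 h, 12.05 and 11.65 at 16 h, and 11.60 and 11.79 at 48 h.

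The promoters of the ribosome biogenesis genes held the E-box in a larger share than the promoters of all genes read. RefSeq promoters (GRCh38.p14, 250 bases before to 50 bases after the gene's start) were matched for 45 of the 54 genes, and 20 of these, or 44.4%, held CACGTG, which reads the same on both strands. Over the promoters of 15384 genes read on the arrays the share was 8.55%. In 19 of the 45, or 42.2%, the word began within 50 bases of the start, against 3.37% of the 15384. Among 82 matched promoters of further ribosome biogenesis genes, the list most like this one, 21 held it (25.6%), and 18.3% held it within 50 bases. AGAACA, a half-site of steroid receptors searched on both strands, stood in 7 of the 45, or 15.6%, against 11.7% of the 15384. These are matches of letters in a short window and say nothing about binding.

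The stretch of 100 bases around the start is shown for the 8 genes that were called higher at 16 h and held an E-box. They were picked by both traits, so no link between the 2 is read from them. WDR43 and PES1 also held AGAACA, at -161 and -134 from the start and outside the stretch shown, and the others of the 8 did not. The E-box is in capitals, each sequence runs 5′ to 3′ along the gene's strand, and the start of the gene lies in the middle. CCDC86 lies on the plus strand at chr11:60842063-60842162, BYSL on the plus strand at chr6:41921449-41921548, WDR43 on the plus strand at chr2:28894617-28894716 and NAT10 on the plus strand at chr11:34105579-34105678. PES1 lies on the minus strand at chr22:30591861-30591960, RRP9 on the minus strand at chr3:51941855-51941954, NOP2 on the minus strand at chr12:6568242-6568341 and PUS7 on the minus strand at chr7:105522222-105522321.
CCDC86: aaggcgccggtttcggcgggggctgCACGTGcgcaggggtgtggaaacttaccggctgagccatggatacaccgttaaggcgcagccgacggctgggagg
BYSL: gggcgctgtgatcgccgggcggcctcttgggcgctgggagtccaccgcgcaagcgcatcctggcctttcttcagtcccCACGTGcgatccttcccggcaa
WDR43: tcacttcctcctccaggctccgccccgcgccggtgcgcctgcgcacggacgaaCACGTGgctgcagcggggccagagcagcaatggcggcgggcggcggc
NAT10: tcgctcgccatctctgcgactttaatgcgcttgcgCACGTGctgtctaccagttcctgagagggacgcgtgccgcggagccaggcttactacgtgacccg
PES1: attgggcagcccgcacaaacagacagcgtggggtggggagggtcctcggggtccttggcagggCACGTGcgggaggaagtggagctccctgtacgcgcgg
RRP9: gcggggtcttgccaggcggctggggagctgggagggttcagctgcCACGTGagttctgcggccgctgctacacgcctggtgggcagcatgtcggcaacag
NOP2: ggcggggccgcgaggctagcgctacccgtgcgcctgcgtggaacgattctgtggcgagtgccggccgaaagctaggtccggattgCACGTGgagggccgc
PUS7: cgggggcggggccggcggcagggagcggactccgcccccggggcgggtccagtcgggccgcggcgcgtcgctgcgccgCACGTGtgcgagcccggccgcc
The distance of the E-box from the start differed among them, and in CCDC86, NAT10 and RRP9 it began before the start. NOP16, which was also called at 4 h and 16 h, had no CACGTG in its promoter. Of the 40 read genes with a promoter, 8 of 19 with the E-box were called higher at 16 h and 6 of 21 without it, and the median log2 change at 16 h was 0.35 with it and 0.21 without it. This difference was not tested.

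Across the 47 genes, most signals stood above vehicle at 4 h and 16 h and nearer to it at 48 h. At 4 h the median log2 change against vehicle was 0.28, at 16 h it was 0.32 and at 48 h it was 0.17, while the medians over all 19775 genes were 0.00, 0.02 and 0.01. Without DHT 48 h replicate 2 the median of the 47 at 48 h was 0.11. Of the 47, 43 lay above 0 at 4 h, 44 at 16 h and 38 at 48 h, or 91.5%, 93.6% and 80.9%, against 50.9%, 56.3% and 52.8% of all genes. Both DHT arrays stood above both vehicle arrays in 39 genes at 4 h (83.0%, against 19.4% of all genes), in 37 at 16 h (78.7%, against 25.9%) and in 30 at 48 h (63.8%, against 25.8%). Both DHT arrays stood below both vehicle arrays in 1 gene at 4 h and 1 at 16 h (2.13% each, against 20.8% and 21.1% of all genes), and in 4 at 48 h (8.51%, against 26.1%). The 47 were chosen with earlier results of these data known, so these shares beside those of all genes are a description. The mean was highest at 4 h in 21 genes, at 16 h in 24 and at 48 h in 2. These 3 comparisons share the vehicle arrays, and in arrays of whole cultures a change in RNA per cell and a change in the share of cells cannot be told apart.

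**Figure D1:**
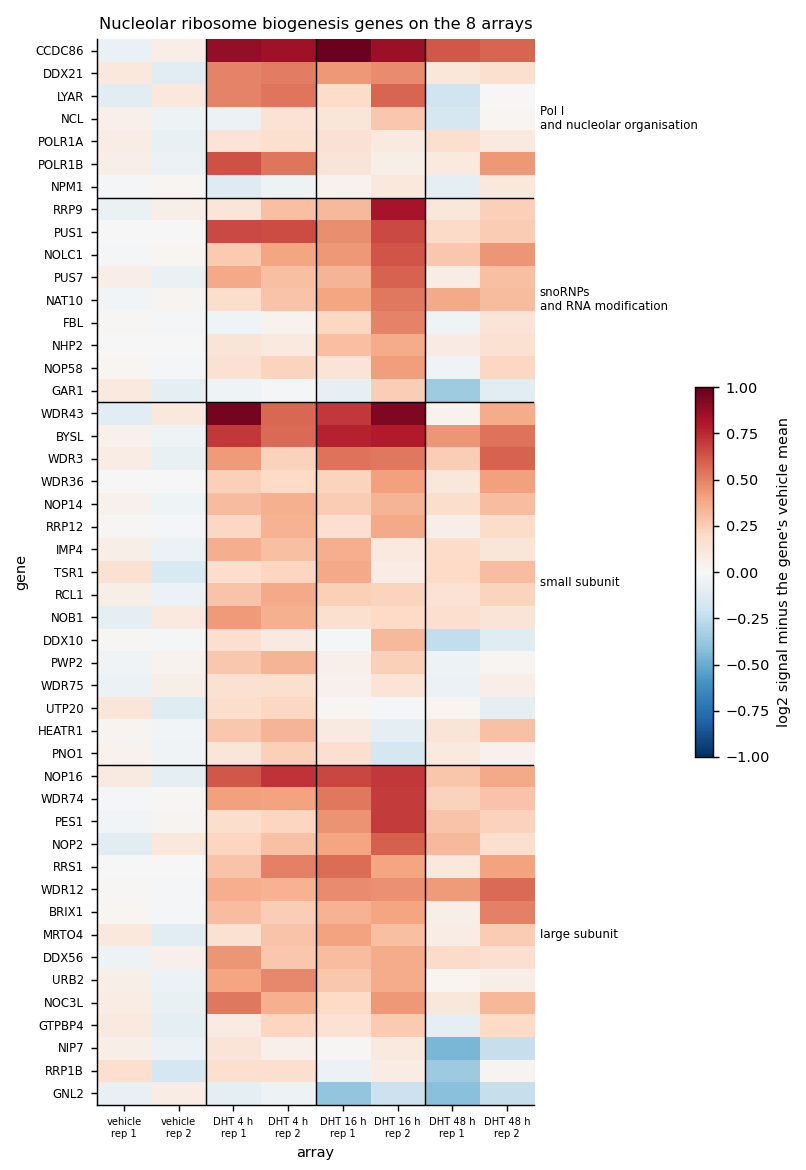
Each row is 1 of the 47 ribosome biogenesis genes, each column 1 of the 8 arrays, and colour gives the log2 signal minus the gene's vehicle mean, on a scale limited to -1 and 1. Rows are grouped by role and ordered by the 16 h change, and most rows are red in the 4 h and 16 h columns and paler at 48 h.

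**Figure D2:**
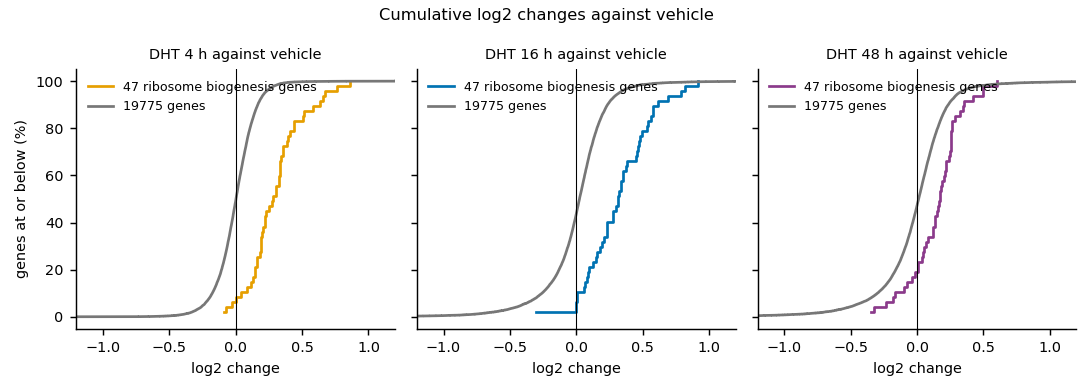
Cumulative share (%) of genes at or below each log2 change against vehicle at 4, 16 and 48 h, for the 47 ribosome biogenesis genes (coloured) and all 19775 genes (grey). The coloured curve lies right of the grey one at each time, with medians of 0.28, 0.32 and 0.17.

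A gene was called where limma's moderated test gave an adjusted p below 0.05 after Benjamini-Hochberg adjustment over all 19775 genes. At 4 h 4 of the 47 were called higher and 0 lower, that is 8.51% higher against 0.106% of all genes, with 0.0708% of all genes lower. At 16 h 17 were called higher and 0 lower, 36.2% higher against 2.55% of all genes, with 4.3% of all genes lower. At 48 h 4 were called higher and 0 lower, 8.51% higher against 3.13% of all genes, with 6.38% of all genes lower. At an unadjusted p below 0.05, 26 of the 47 were higher and 0 lower at 4 h, against 703 and 847 of the 19775 genes. At 16 h 29 were higher and 1 lower, against 1872 and 2058, and at 48 h 15 were higher and 2 lower, against 1794 and 2548. The F test over the 3 comparisons called 14 of the 47, or 29.8%, against 8.9% of all genes. Since the 47 were chosen with earlier results of these data known, their shares beside those of all genes are a description.

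CCDC86, NOP16, PUS1 and BYSL were called higher at 4 h, and all 4 were again called at 16 h. This gives no order of rising, since 0 of the 47 were called higher at 16 h than at 4 h and the 17 genes called at 16 h had log2 changes of 0.11 to 0.86 at 4 h. CCDC86, a coiled-coil protein of the nucleolus, had a log2 signal of 10.77 and 10.74 at 4 h, against 9.83 and 9.96 with vehicle. This was a 1.82-fold rise (log2 change 0.86 ± 0.09, SE, n = 2 each, limma adjusted p = 0.00363). Its 4 h arrays lay close together and well clear of vehicle. NOP16, a nucleolar protein of large subunit assembly, had 10.97 and 11.07 at 4 h, against 10.43 and 10.26 with vehicle (log2 change 0.67 ± 0.10, limma adjusted p = 0.0220).

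PUS1, a pseudouridine synthase that modifies transfer RNA and other RNAs, had 9.11 and 9.10 at 4 h, against 8.44 and 8.45 with vehicle (log2 change 0.66 ± 0.10, limma adjusted p = 0.0220). BYSL, bystin, which acts in the last steps of small subunit maturation, had 10.43 and 10.29 at 4 h, against 9.77 and 9.68 with vehicle (log2 change 0.64 ± 0.10, limma adjusted p = 0.0257). In none of the 4 genes did the 4 h and vehicle arrays overlap. WDR43 had a log2 change of 0.76 ± 0.15 at 4 h and POLR1B one of 0.59 ± 0.12, each with limma adjusted p = 0.0986 and without a call.

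The 4 h calls rest on few arrays. None of the 4 was called without vehicle replicate 1 or without either 4 h array, and 1 was called without vehicle replicate 2 or without either 48 h array. CCDC86 was the gene whose call at 4 h was lost least often, without 3 of the 8 arrays, with a highest adjusted p of 0.0914 (limma).

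**Figure D3:**
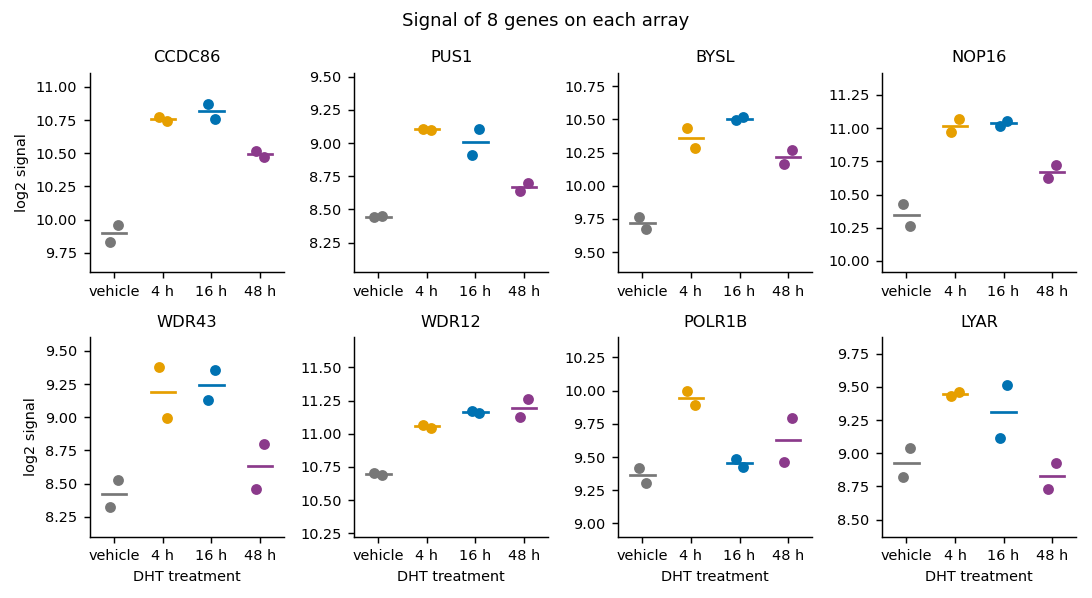
Log2 signal of 8 genes on every array (points, n = 2 per group) with the group mean (line), from vehicle on the left to 48 h of DHT on the right; each panel spans 1.5 log2 units. CCDC86, PUS1, BYSL and NOP16 stand above vehicle from 4 h, WDR12 is as high at 48 h as at 16 h, and POLR1B and LYAR are highest at 4 h.

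Among genes of RNA polymerase I and of nucleolar organisation, 7 were read. 1 was called higher at 4 h, 2 at 16 h and 1 at 48 h, against 0.106%, 2.55% and 3.13% of all genes. The median log2 change was 0.51 at 4 h, 0.20 at 16 h and 0.13 at 48 h. CCDC86 had 10.87 and 10.76 at 16 h and 10.52 and 10.47 at 48 h, and was called at both times (log2 change against vehicle 0.92 ± 0.09, adjusted p = 0.000164, and 0.60 ± 0.09, adjusted p = 0.00177, limma). Both calls held whichever of the 8 arrays was dropped. DDX21, an RNA helicase of ribosomal RNA transcription and processing, had 12.37 and 12.16 with vehicle, 12.76 and 12.78 at 4 h, 12.70 and 12.73 at 16 h, and 12.38 and 12.42 at 48 h. It was called at 16 h (log2 change 0.45 ± 0.10, limma adjusted p = 0.0163), and its other probe set gave 0.51, also called. The 48 h arrays of DDX21 lay just above the higher vehicle array. The 16 h call of DDX21 was lost without vehicle replicate 2 or DHT 16 h replicate 2.

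POLR1B, the second-largest subunit of RNA polymerase I, followed another course. It had a log2 signal of 9.42 and 9.30 with vehicle, 10.00 and 9.89 at 4 h, 9.49 and 9.42 at 16 h, and 9.46 and 9.80 at 48 h. Both 4 h arrays were above every other array, and at 16 h the gene was called lower than at 4 h (log2 difference -0.49 ± 0.12, limma adjusted p = 0.0470). This was the 1 call among the 47 between 4 h and 16 h, 2.13% against 1.77% of all genes called lower, a share near the background, and 0 were called higher, against 1.28% of all genes. The call was lost without any 1 of the vehicle, 4 h or 16 h arrays. For the same comparison the other probe sets of POLR1B gave log2 differences of 0.25, -0.09 and -0.05 with no call. At 4 h against vehicle these probe sets gave -0.17, 0.34 and 0.06, also with no call.

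Between 4 h and 16 h the 47 genes had a median log2 difference of 0.03. Both 16 h arrays stood above both 4 h arrays in 14 genes (29.8%, against 22.6% of all genes) and below them in 11 (23.4%, against 19.9%). Of the 47, 21 lay below 0, or 44.7%, against 46.4% of all genes.

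POLR1A, the largest subunit of the same enzyme, had log2 changes of 0.15, 0.12 and 0.13 at 4, 16 and 48 h with no call. LYAR, a nucleolar zinc finger protein, had 8.82 and 9.04 with vehicle, 9.43 and 9.46 at 4 h, 9.11 and 9.51 at 16 h, and 8.73 and 8.93 at 48 h. Its 4 h arrays stood clear of vehicle and its 48 h arrays overlapped vehicle, yet neither change was called. The abundant nucleolar proteins NCL, nucleolin, and NPM1, nucleophosmin, had log2 changes of 0.04 and -0.09 at 4 h and 0.20 and 0.07 at 16 h, again with no call.

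Among small nucleolar RNP and RNA modification genes, 9 of 11 were read. 1 was called higher at 4 h, 6 at 16 h and 1 at 48 h, against 0.106%, 2.55% and 3.13% of all genes. In 8 of the 9 the mean was highest at 16 h. DHT 16 h replicate 2, the array with the wide 3′ minus 5′ differences, read above replicate 1 in all 9. On replicate 1, GAR1 (10.31), NOP58 (11.40) and PUS7 (9.468) lay below their 4 h means of 10.36, 11.46 and 9.473. The others of the 8 stayed above their 4 h means on replicate 1. PUS1 had 8.91 and 9.11 at 16 h, against 8.44 and 8.45 with vehicle (log2 change 0.56 ± 0.10, limma adjusted p = 0.00485). RRP9, a protein of the U3 RNP that guides early cleavage, had 9.50 and 10.01 at 16 h, against 9.12 and 9.25 with vehicle (log2 change 0.58 ± 0.15, limma adjusted p = 0.0386). The 2 replicates of RRP9 at 16 h differed by 0.50, the widest gap of the 47 genes in that group, and its call was lost without any 1 array but DHT 16 h replicate 1.

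NOLC1, a chaperone of these particles, had 11.76 and 11.96 at 16 h, against 11.30 and 11.34 with vehicle (log2 change 0.53 ± 0.11, limma adjusted p = 0.0114), while its other probe sets gave 0.17 and 0.30 with no call. With the mean of all probe sets the NOLC1 call was lost. NAT10, which acetylates ribosomal RNA, had 10.45 and 10.58 at 16 h and 10.44 and 10.37 at 48 h, against 10.03 and 10.09 with vehicle. It was called at both times (log2 change 0.46 ± 0.09, adjusted p = 0.0132, and 0.35 ± 0.09, adjusted p = 0.0412, limma). Its 48 h call was lost without any 1 of the vehicle, 4 h or 48 h arrays. The pseudouridine synthase PUS7 and NHP2, a core protein of the box H/ACA particles, completed the 16 h calls with log2 changes of 0.46 and 0.33. PUS7 had 9.47 and 9.72 at 16 h, against 9.20 and 9.06 with vehicle, and NHP2 had 13.10 and 13.17 at 16 h, against 12.80 on both vehicle arrays. The NHP2 call was lost without any 1 of the 8 arrays.

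Other core proteins of these particles had no call. FBL, fibrillarin, the methyltransferase of the box C/D particles, had 12.54 and 12.83 at 16 h, against 12.35 and 12.31 with vehicle (log2 change 0.35 ± 0.11, limma adjusted p = 0.0901). NOP58, its partner, had a log2 change of 0.28 at 16 h and GAR1, an H/ACA core protein, one of 0.08. At 48 h GAR1 had 10.04 and 10.28, below both vehicle arrays, 10.49 and 10.30, with no call.

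All 16 genes of the small subunit were read, and both 4 h arrays exceeded both vehicle arrays in each of the 16, as in 19.4% of all genes. The median log2 change was 0.31 at 4 h, 0.23 at 16 h and 0.17 at 48 h, and 1, 3 and 1 genes were called higher at these times, against 0.106%, 2.55% and 3.13% of all genes. WDR43, a processome subunit that also supports RNA polymerase I transcription, had 9.13 and 9.36 at 16 h, against 8.32 and 8.53 with vehicle (log2 change 0.82 ± 0.15, limma adjusted p = 0.00747). At 48 h it had 8.46 and 8.80, and these overlapped the vehicle arrays. BYSL had 10.49 and 10.52 at 16 h and 10.16 and 10.27 at 48 h, both called against vehicle (log2 change 0.79 ± 0.10, adjusted p = 0.000543, and 0.49 ± 0.10, adjusted p = 0.00671, limma). Its 48 h call was lost without DHT 48 h replicate 2 (adjusted p = 0.0566, limma).

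WDR3, of the UTP-B part of the processome, had 10.00 and 9.98 at 16 h, against 9.53 and 9.38 with vehicle (log2 change 0.54 ± 0.12, limma adjusted p = 0.0243). It was not called with its other, dim probe set, which gave 0.17. The rest of the processome and late small subunit genes had no call against vehicle. HEATR1, which like WDR43 belongs to the UTP-A part, had log2 changes of 0.31 at 4 h, 0.00 at 16 h and 0.21 at 48 h. NOB1, the endonuclease of the last cut of small subunit RNA, had 0.39, 0.18 and 0.15, and UTP20, a processome protein, had 0.19, 0.01 and -0.04.

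The remaining small subunit genes are given by their log2 changes at 4, 16 and 48 h, none of them called. WDR75, of the UTP-A part, had 0.16, 0.09 and 0.01. Of the UTP-B part, PWP2 had 0.31, 0.15 and -0.02 and WDR36 had 0.22, 0.31 and 0.26. PWP2 was thus highest at 4 h, where its arrays read 10.13 and 10.20, against 9.82 and 9.89 with vehicle.

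IMP4, of the Mpp10 complex within the processome, had 0.33, 0.23 and 0.16. The processome factors NOP14 and RCL1 had 0.34, 0.30 and 0.24, and 0.33, 0.23 and 0.18. Both kept all DHT arrays above both vehicle arrays. The helicase DDX10 had 0.13, 0.15 and -0.18, and its 48 h arrays, 9.32 and 9.45, lay below both vehicle arrays, 9.58 and 9.56. RRP12, an export factor of the small subunit, had 0.28, 0.27 and 0.12, while the late maturation factors PNO1 and TSR1 had 0.18, 0.00 and 0.07, and 0.19, 0.23 and 0.25.

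Of 20 large subunit genes 15 were read. Among these, 1 was called higher at 4 h, 6 at 16 h and 1 at 48 h, against 0.106%, 2.55% and 3.13% of all genes. NOP16 had 11.02 and 11.05 at 16 h, against 10.43 and 10.26 with vehicle (log2 change 0.69 ± 0.10, limma adjusted p = 0.00149), and 10.62 and 10.72 at 48 h with no call. The next brightest probe set of NOP16 gave 0.51 at 4 h and 0.52 at 16 h, the second of which was called. Its other 2 probe sets gave 0.05 and 0.17 at 4 h and 0.15 and 0.25 at 16 h with no call, and the 4 h call was lost with the mean of all probe sets and with probe sets not of the _s_at or _x_at kind. WDR74, a factor of large subunit maturation, had 10.30 and 10.48 at 16 h, against 9.77 and 9.79 with vehicle (log2 change 0.62 ± 0.09, limma adjusted p = 0.00232). Its other probe sets gave 0.19 and -0.07 with no call. The 16 h call of WDR74 was lost with the mean of all probe sets and with probe sets not of the _s_at or _x_at kind.

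PES1 and WDR12 belong with BOP1 to the PeBoW complex, which processes large subunit RNA. PES1 had 11.28 and 11.54 at 16 h, against 10.81 and 10.86 with vehicle (log2 change 0.57 ± 0.10, limma adjusted p = 0.00617), and 11.12 and 11.06 at 48 h with no call. Its other probe set gave 0.09 at 16 h, and with the mean of both the 16 h call was lost (log2 change 0.33, limma adjusted p = 0.0519). WDR12 had 10.71 and 10.69 with vehicle, 11.06 and 11.05 at 4 h, 11.17 and 11.16 at 16 h, and 11.12 and 11.26 at 48 h. It was called at 16 h (log2 change 0.47 ± 0.09, adjusted p = 0.00935) and at 48 h (0.50 ± 0.09, adjusted p = 0.00493, limma), and its 16 h and 48 h arrays overlapped. Its other probe sets gave 0.40 and 0.13 at 16 h and 0.19 and 0.04 at 48 h with no call, and with the mean of all probe sets the 48 h call was lost (log2 change 0.24, limma adjusted p = 0.0954). NOP2, a methyltransferase of large subunit RNA, and RRS1, which helps to load a small ribosomal RNA, had log2 changes of 0.49 and 0.48 at 16 h, both called. NOP2 had 10.18 and 10.38 at 16 h, against 9.68 and 9.89 with vehicle, and RRS1 had 11.47 and 11.31 at 16 h, against 10.91 on both vehicle arrays.

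The large subunit genes without a call against vehicle are again given by their log2 changes at 4, 16 and 48 h. The helicase DDX56 had 0.36, 0.34 and 0.17, and NOC3L, an assembly factor, had 0.44, 0.32 and 0.22. URB2, a large subunit factor, had 0.44, 0.32 and 0.04. Both 4 h arrays of these genes stood above both vehicle arrays.

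BRIX1, an assembly factor, had 0.28, 0.37 and 0.28, and MRTO4, which holds the place of a stalk protein on the immature subunit, had 0.22, 0.35 and 0.17. The GTPase GTPBP4 had 0.15, 0.21 and 0.05. RRP1B, a nucleolar protein of the large subunit path, had 0.16, 0.01 and -0.17, and its vehicle arrays, 10.22 and 9.88, spanned most of its other values.

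A pair of large subunit genes had negative changes that were not called. GNL2, a nucleolar GTPase, had 9.12 and 9.29 at 16 h and 9.09 and 9.27 at 48 h, against 9.43 and 9.58 with vehicle, with no call (log2 change -0.30 ± 0.11, limma adjusted p = 0.127, and -0.33 ± 0.11, limma adjusted p = 0.0852). NIP7, a pre-ribosomal factor, had 7.92 and 8.15 at 48 h, against 8.44 and 8.32 with vehicle, likewise without a call (log2 change -0.34 ± 0.10, limma adjusted p = 0.0640). With arrays shifted to equal housekeeping signal both were called lower at 48 h, with log2 changes of -0.40 for NIP7 and -0.38 for GNL2.

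DHT 16 h replicate 2, the array with the wide 3′ minus 5′ differences, read higher than replicate 1 in 34 of the 47 genes and 13 of the 17 called, and over all genes it did so in 57.2%. At 48 h replicate 2 read higher in 37 of the 47, against 49.9% of all genes, and without it 2 genes were called higher at 48 h. Without DHT 16 h replicate 2 the median log2 change at 16 h was 0.25 and 7 genes were called, namely CCDC86, PUS1, BYSL, PES1, WDR12, NOP16 and WDR74. The part of RNA quality in the 16 h and 48 h values was not tested. The count was 6 without vehicle replicate 1 and 10 without vehicle replicate 2, and CCDC86, PUS1, BYSL, NOP16 and WDR74 kept their 16 h calls whichever of the 8 arrays was dropped. PUS7 lost its call in 5 of the 8 such fits, WDR3 and RRS1 in 4 each, and PES1 in 1.

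**Figure D4:**
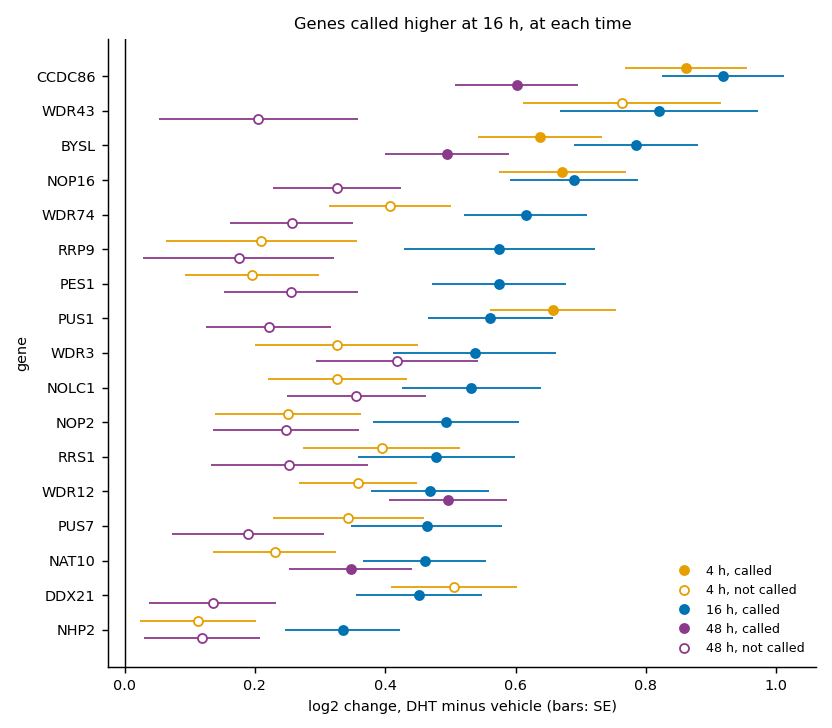
Log2 change against vehicle at 4 h, 16 h and 48 h for the 17 genes called higher at 16 h (points, with SE as bars; n = 2 arrays per group), filled where called. CCDC86, BYSL, WDR12 and NAT10 are filled at 48 h. The genes were chosen by their 16 h values, so nothing is read from lower values at the other times.

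The comparison of 48 h with the earlier times asked which of these rises faded. All arrays share 1 estimate of the spread, so the vehicle arrays also bear on the tests between DHT times. Of the 17 genes called at 16 h, 4 were called at 48 h (CCDC86, BYSL, WDR12 and NAT10) and 13 were not. The median log2 change of the 17 was 0.36 at 4 h, 0.54 at 16 h and 0.26 at 48 h. The 17 were chosen for high 16 h values, which favours a lower value at the other times, so these medians are a description and no sign of a fall.

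Set directly against 16 h, the 48 h values of the 47 genes had a median log2 difference of -0.17, against -0.01 over all genes. It was -0.10 without DHT 48 h replicate 1 and -0.28 without DHT 48 h replicate 2. Of the 47, 41 lay below 0 (87.2%, against 53.6% of all genes), and in 24 both 48 h arrays were below both 16 h arrays (51.1%, against 21.4%). Among 94 further ribosome biogenesis genes, the list most like this one, these 2 shares were 76.6% and 40.4%. Of those 94, 2 were called lower (2.13%) and 0 higher. None of the 47 was called by limma, against 0.48% of all genes called lower and 0.349% higher, and 18 were lower at an unadjusted p below 0.05, against 1365 of the 19775 genes. WDR43 had the widest difference, with 8.46 and 8.80 at 48 h, against 9.13 and 9.36 at 16 h (log2 difference -0.61 ± 0.15, limma adjusted p = 0.118). Without DHT 16 h replicate 1, which leaves the array with the wide 3′ minus 5′ differences as the only one at 16 h, 4 genes were called lower, namely LYAR, RRP9, DDX10 and WDR74.

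Set against 4 h, the 48 h values had a median log2 difference of -0.15, against 0.00 over all genes, and 5 of the 47 were called lower and 0 higher (10.6% lower, against 3.72% of all genes, with 2.41% of all genes higher). The median was -0.09 without DHT 48 h replicate 1. Of the 47, 36 lay below 0, or 76.6%, against 50.4% of all genes. The arrays did not overlap in 27 genes that were lower at 48 h (57.4%, against 25.2%) and in 3 that were higher (6.38%, against 22.7%). Of the 94 further genes, 73.4% lay below 0 and 48.9% were lower without overlap, while 7.45% were higher without overlap. Of those 94, 2 were called lower (2.13%) and 1 higher (1.06%). LYAR had 8.73 and 8.93 at 48 h, against 9.43 and 9.46 at 4 h (log2 difference -0.61 ± 0.14, limma adjusted p = 0.0202). PUS1 had 8.63 and 8.70 at 48 h, against 9.11 and 9.10 at 4 h (log2 difference -0.44 ± 0.10, limma adjusted p = 0.0199). In both genes the 4 h arrays were nearly equal and lay above both 48 h arrays.

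NIP7 had 7.92 and 8.15 at 48 h, against 8.50 and 8.43 at 4 h (log2 difference -0.43 ± 0.10, limma adjusted p = 0.0315). URB2 had 9.61 and 9.65 at 48 h, against 9.99 and 10.07 at 4 h (log2 difference -0.40 ± 0.09, limma adjusted p = 0.0268), and DDX21 had a difference of -0.37 ± 0.10 (limma adjusted p = 0.0459). Of the 5, only PUS1 and DDX21 had been called higher than vehicle at an earlier time, so these 2 met the rule for a rise that faded. For PUS1 the 4 h rise and the fall from 4 h share the 4 h arrays, which favours a lower 48 h value. DDX21 was called higher than vehicle at 16 h and not at 4 h, and its fall was called against 4 h only. Meeting the rule is thus a description. LYAR, URB2 and NIP7 had not been called against vehicle at any time. Every one of the 5 calls was lost without DHT 4 h replicate 1, without DHT 4 h replicate 2 or without DHT 48 h replicate 1, and 4 were lost without DHT 48 h replicate 2. The counts in these 4 fits were 0, 1, 0 and 1, where the 1 without DHT 4 h replicate 2 was WDR43 and the 1 without DHT 48 h replicate 2 was NIP7.

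**Figure D5:**
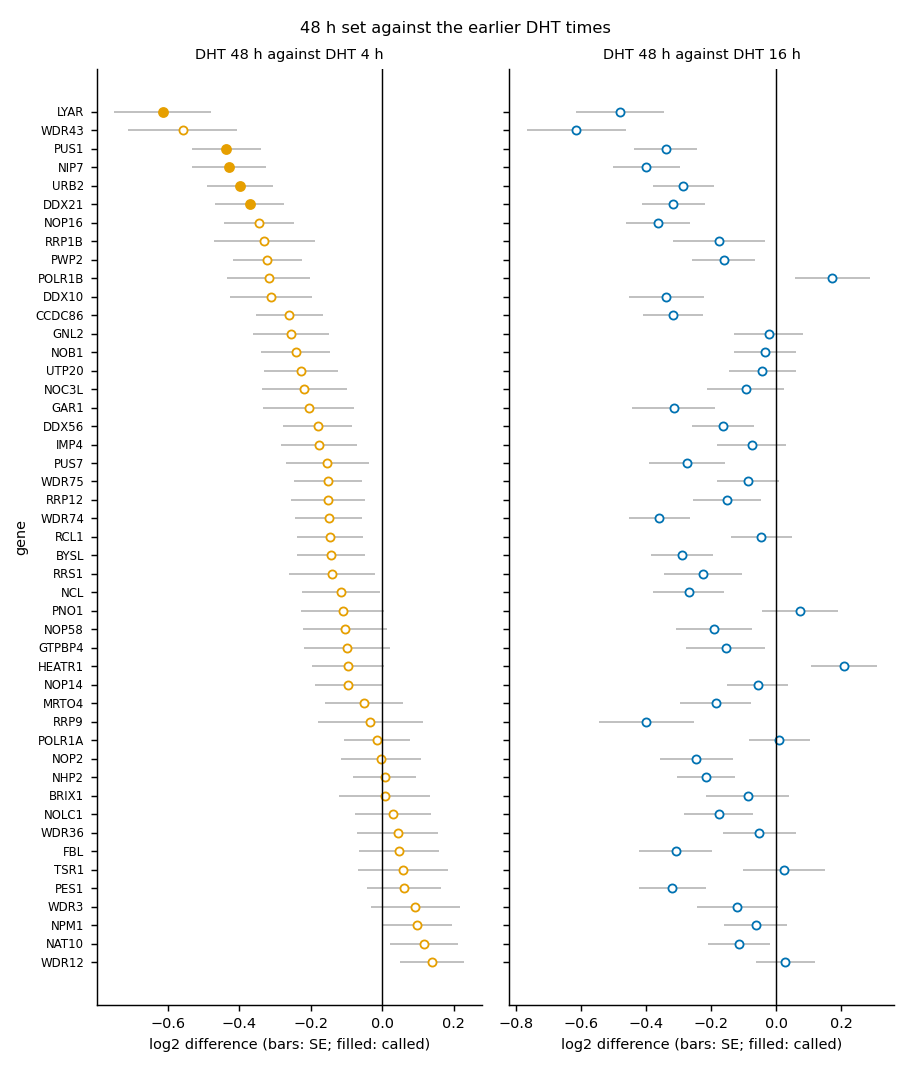
Log2 difference of 48 h minus 4 h (left) and 48 h minus 16 h (right) for the 47 genes, in the same order on both sides, with SE as bars (n = 2 arrays per group) and filled points where called. The 5 filled points on the left are LYAR, PUS1, NIP7, URB2 and DDX21, and there is no filled point on the right.

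The rest of the machinery was read from a second list. Of 96 further ribosome biogenesis genes, chosen by role, 94 could be read. Of these, 0 were called at 4 h by limma (17 higher and 0 lower at an unadjusted p below 0.05), 11 were called higher and 1 lower at 16 h, and 2 higher and 3 lower at 48 h. The share called lower at 16 h was 1.06%, against 4.3% of all genes. At 48 h 2.13% were called higher, against 3.13% of all genes, and 3.19% lower, against 6.38%. These 3 shares lay below the background. The median log2 change was 0.09 at 4 h, 0.09 at 16 h and -0.01 at 48 h. The share called higher at 16 h was 11.7%, against 36.2% of the 47 and 2.55% of all genes, and the difference between the lists was not tested, since the 47 were chosen with earlier results known.

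EXOSC4, a subunit of the RNA exosome, had 12.17 and 12.34 at 16 h, against 11.51 and 11.49 with vehicle (log2 change 0.76 ± 0.09, limma adjusted p = 0.000602). PAK1IP1, a large subunit factor, had 0.61 ± 0.13 (adjusted p = 0.0138) and NOL6, a processome protein, 0.57 ± 0.10 (adjusted p = 0.00570, limma), and NOL6 was called again at 48 h with 0.47. TAF1A, part of the selectivity factor that recruits RNA polymerase I, was the 1 gene lower at 16 h, with 7.70 and 7.69, against 8.66 and 8.39 with vehicle (log2 change -0.83 ± 0.14, limma adjusted p = 0.00520). At 48 h it was again called lower, together with NVL, an ATPase of large subunit maturation, and NMD3, the export adaptor of the large subunit. POLR1D, a subunit common to RNA polymerases I and III, was called higher at 16 h and 48 h, with a log2 change of 0.55 at each, and had 0.09 at 4 h. NVL, NMD3 and POLR1D are named here after their values were seen.

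The 25 genes with more than 1 probe set had 46 others, of which 38 lay above 0 at 4 h, 36 at 16 h and 39 at 48 h, with median log2 changes of 0.15, 0.15 and 0.09. Adjusted over all probe sets, 0 were called at 4 h, 2 at 16 h (those of DDX21 and NOP16) and 0 at 48 h. For genes called at 16 h, 11 of 12 other probe sets had the sign of the call.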

How the data were processed

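The deposited values are log2 signals of 54675 probe sets on 8 arrays, normalised by the authors with RMA (robust multi-array average), per the submitters' processing notes, which give no version. No further normalisation was applied, and no dim genes were removed. Leaving out 62 controls, GEO's platform annotation gave 1 symbol to 41091 probe sets, several to 1801 and none to 11721, and no symbol needed updating by gene ID. For 18 of the 47 genes the probe set is of the _s_at or _x_at kind, which can match more than 1 transcript. The precision is limited by 2 arrays per group.

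The 8 arrays entered 1 model with 4 group means, in limma 3.58.1 under R 4.3.3 (4 residual and 7.21 prior degrees of freedom). Tests were two-sided, and p-values were adjusted over all 19775 genes in each of 6 comparisons. Errors are limma's standard errors. An exact permutation test of 2 arrays against 2 cannot go below 0.333 and was not run. The fit was tested on simulated data. The labels call the samples biological replicates but do not say what they share, so p-values measure the spread between these samples. The members and lists were chosen with earlier results of these data known. All 47 genes could be named. Full statistics went to genes called at 4 h, to the up to 3 largest calls per role group at 16 h and up to 2 at 48 h, and to the largest calls between times. Promoter sequences are RefSeq's (GRCh38.p14). Other settings were another probe set rule, adjustment over all probe sets, another scaling, a filter on dim genes, another variance model, the replicate number as a block, only the 2 groups compared, and each array left out.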

Additional observations from a re-analysis of the deposited data

Results flagged for a closer look

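6 differences between DHT times passed limma's test of the difference itself. At 16 h POLR1B was lower than at 4 h, with a log2 difference of -0.49. At 48 h LYAR (-0.61), PUS1 (-0.44), NIP7 (-0.43), URB2 (-0.40) and DDX21 (-0.37) were lower than at 4 h. Each of the 6 calls was lost without at least 1 of the 4 arrays it compares, and each with p-values adjusted over all probe sets. The calls of POLR1B, DDX21 and LYAR were also lost in 1 or more other settings.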

How the results depend on the processing

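No call changed its direction under any of the alternatives. With p-values adjusted over all probe sets, 1 member was called higher at 4 h, 11 at 16 h, 0 were lower at 16 h against 4 h, 0 lower at 48 h against 4 h, and the F test called 8. With only the 2 groups compared the counts were 2 at 4 h, 11 at 16 h and 0 for 16 h against 4 h. Probe sets not of the _s_at or _x_at kind gave 0 lower at 16 h against 4 h, 2 lower at 48 h against 4 h and 9 by the F test. The mean of all probe sets gave 0 for 16 h against 4 h and 7 by the F test, and equal medians gave 0 for 16 h against 4 h. Quantile normalisation gave 9 higher at 48 h. Equal housekeeping signal, which moved the median of all genes by -0.11 for 48 h against 4 h, gave 2 lower at 48 h against vehicle, 13 lower at 48 h against 4 h and 22 by the F test. Array weights gave 8 lower at 48 h against 4 h. The causes were not tested.

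Without 1 array at a time the count of members called higher ranged from 0 to 4 at 4 h, 6 to 16 at 16 h and 2 to 5 at 48 h, and from 0 to 3 for 16 h against 4 h. Members called lower ranged from 0 to 1 for 16 h against 4 h, 0 to 4 for 48 h against 16 h and 0 to 6 for 48 h against 4 h, and the F test called 7 to 20. The lone array of a group is then assumed to vary like the others. With the replicate block 0 members were lower at 16 h against 4 h, where 1 had been called, and the other counts stayed within 1.5 times. The labels do not say whether the numbers pair the samples. The deviations of same-numbered arrays correlated at between -0.24 and 0.20. With 2 arrays per group these values cannot settle whether same-numbered arrays share a day. Of 31 calls, 5 held in every setting, 4 of them at 16 h and 1 at 48 h. Of 251 values not called, 85 changed sign and 30 were called in at least 1 setting. Dim probe sets and 2 arrays per group limit what small changes can be seen.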
